A study of Mus musculus with 41 samples.

Results

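Cells short of oxygen switch on a shared set of genes, and 10 of them were followed here in mouse melanomas after withdrawal of doxycycline: Vegfa, Adm, P4ha1, P4ha2, Ankrd37, Bnip3, Car9, Egln3, Ndrg1 and Ddit4. They were chosen by name, and every probe set that names 1 of these genes and no other was taken. That gave 18 of the 34958 one-gene probe sets on the array, and 10 of the 18194 genes. All 10 genes and all 18 probe sets passed the filter on low values.

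The 41 tumours came from iBIP mice, in which doxycycline in the drinking water drives the BRAF oncogene. In this model the doxycycline-dependent BRAF transgene is active in melanocytes, and every group shares the iBIP background. The labels give the strain and the days off doxycycline, but no age, sex or litter. Each title also carries a number whose meaning is not stated, in ranges that partly follow the groups. At day 0, with doxycycline still given, 4 tumours were collected. The groups of days 1, 2, 3, 6 and 9 held 7, 5, 6, 4 and 3 tumours. Days 16 and 29 had 1 tumour each. The late group pooled 10 tumours of days 63 to 163. RNA came from macrodissected frozen pieces of tumour, so each value mixes melanoma cells with the other cells of the piece, and fewer cells of a type cannot be told apart from less RNA per cell. Nothing in the labels says that tumours of a group came from separate mice. The p-values therefore measure the spread between these tumours.

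In the presence of oxygen, prolyl hydroxylases such as the product of Egln3 mark the alpha subunits of the hypoxia-inducible factors (HIF) for destruction through the von Hippel-Lindau protein. When oxygen falls the subunits persist, pair with ARNT, and bind a short DNA core in the control regions of their target genes. The targets raise blood supply, glycolysis, matrix assembly, acid export and the removal of mitochondria. Solid tumours such as melanoma express them in poorly perfused regions, and growth signalling can also raise them in the presence of oxygen.

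The core searched for was ACGTG or GCGTG on either strand (CACGT or CACGC when read on the other strand), with matches that share their central CG, as in CACGTG, counted once. RefSeq windows of 300 bases, 250 before and 50 after a transcript start (GRCm38.p6), were given for 9 of the 10 genes, with 10 windows in all, as Vegfa has both an upstream and an internal start. The core was found in 9 of the 10 windows, beside 43.8% of all 32851 windows of that length, and the only window without it was that of the upstream Vegfa start. A match is a description of these letters and not a binding site. Stretches before the annotated gene start are shown for 4 genes whose values turn out to differ in kind: P4ha1, which fell furthest, Bnip3 and Car9, and Egln3, which was called in no comparison of groups. They lie at chr10:59323046-59323196 (plus strand, 151 bases), chr7:138909507-138909756 (minus strand, 250 bases), chr4:43506776-43507025 (plus strand, 250 bases) and chr12:54203875-54204124 (minus strand, 250 bases) of GRCm38.p6, are written 5′ to 3′ along the gene, and carry the core in capitals.
P4ha1: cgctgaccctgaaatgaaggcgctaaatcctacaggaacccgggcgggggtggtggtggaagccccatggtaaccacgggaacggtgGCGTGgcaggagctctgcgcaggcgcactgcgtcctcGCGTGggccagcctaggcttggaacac
Bnip3: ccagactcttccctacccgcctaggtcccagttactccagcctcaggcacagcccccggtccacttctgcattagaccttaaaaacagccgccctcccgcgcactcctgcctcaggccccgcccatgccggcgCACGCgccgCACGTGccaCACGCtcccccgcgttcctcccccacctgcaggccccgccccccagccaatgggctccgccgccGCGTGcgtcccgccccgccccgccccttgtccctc
Car9: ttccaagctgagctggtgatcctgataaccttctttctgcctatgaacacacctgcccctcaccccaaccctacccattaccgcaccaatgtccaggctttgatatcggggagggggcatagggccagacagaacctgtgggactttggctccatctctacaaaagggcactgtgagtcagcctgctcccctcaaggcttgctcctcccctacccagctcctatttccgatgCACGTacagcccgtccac
Egln3: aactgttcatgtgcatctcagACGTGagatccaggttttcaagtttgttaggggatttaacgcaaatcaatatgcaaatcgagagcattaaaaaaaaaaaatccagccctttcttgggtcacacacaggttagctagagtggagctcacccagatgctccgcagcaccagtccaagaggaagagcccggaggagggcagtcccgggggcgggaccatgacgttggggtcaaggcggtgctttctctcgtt
The P4ha1 stretch holds 2 cores, whose C lies 63 and 26 bases before the gene start. Bnip3 holds 4, at 115, 106, 97 and 34 bases before the start. Car9 has 1 core 16 bases before its start and Egln3 has 1 at 228 bases.

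Technical features of the arrays moved with the groups. Bacterial spike-in probe sets split the arrays into 3 sets: the first held every tumour of days 2, 3 and 6 and day 1 tumour 4, the second the other 6 day 1 tumours and 8 late tumours, and the third days 0, 9, 16 and 29 with late tumours 9 and 10. The 3′ minus 5′ difference of the Gapdh control probe sets, which grows as RNA breaks down, was 0.45 ± 0.13 (SD, n = 4) on the log2 scale at day 0 and 2.62 ± 1.38 (SD, n = 10) in the late tumours, with 8 of those 10 above 2 and only late tumours 5 and 8 below. The melanocyte factor Sox10 stood at 10.26 ± 0.34 log2 intensity at day 0 and 10.06 ± 0.43 in the late tumours. The pigment gene Mlana was low at 5.34 ± 0.23 and 6.04 ± 0.81. Over the 7 melanocyte markers tested the median late difference from day 0 was 0.69, so Sox10 does not show a steady melanocyte content. Of 10 macrophage markers 6 were higher at day 1, with summed intensities of 23038 to 38010 against 6881 to 17045 at day 0, and 1 was higher and 1 lower in the late tumours (9270 to 19629). Of 9 T and NK cell markers 7 were higher at day 1 (1078 to 4084 against 331 to 1136). Against day 1, 9 of 10 macrophage and 9 of 9 T and NK cell markers were lower in the late tumours. Of 6 Schwann cell and myelin markers 4 were higher in the late tumours, with sums of 8326 to 14378 against 2023 to 4266 at day 0, as were 4 of 10 endothelial, 5 of 10 skeletal muscle, 4 of 6 adipocyte, 4 of 7 melanocyte and 2 of 6 neutrophil markers. Of 10 fibroblast markers 5 were higher and 1 lower. Over all genes 7.57% were higher at day 1, and 26.3% were higher and 20.1% lower late against day 0. Late against day 1, 22.8% of all genes were lower. The marker counts are to be read against these shares, and 2 of 6 neutrophil markers is near its share. No marker list was at 0 in a group. The part of these features in the results was not tested except where a value is given.

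Of the 10 hypoxia-induced genes 5 were lower in the late tumours than at day 0, and the other 5 did not pass. P4ha1, Vegfa, Ankrd37, Car9 and Bnip3 were lower at an adjusted p under 0.05 in limma's moderated test over all 14319 genes tested, by 3.88-, 2.29-, 2.26-, 2.06- and 1.82-fold. In this fit no member was higher in any of the 7 comparisons, and none was higher even at an unadjusted p under 0.05. On the array as a whole 26.3% of genes were higher and 20.1% lower in the late tumours, so many genes differed there and 5 lower of 10 must be read against that share. The day 0 arrays all lay in the third spike-in set and 8 of the 10 late arrays in the second. Blocking on the set left P4ha1 lower (-1.99, limma adjusted p = 1.31e-04), ended the other 4 calls and made Ndrg1 higher (0.95, 0.0372). Within the third set P4ha1 alone was called. These 2 fits are not separate checks. Their late differences from day 0 are the same and rest on late tumours 9 and 10, the only late arrays in the set of day 0. The median difference of the 10 genes was -0.66 on the log2 scale, beside 0.045 over all genes.

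The early comparisons called fewer members. Vegfa alone was lower at day 1 (1 of 10), where 6.25% of all genes were lower and 7.57% higher. On day 2 Vegfa and P4ha1 were lower, with 8.35% of all genes lower and 6.74% higher. Vegfa alone was lower again on day 3 (11.6% of all genes lower, 9.74% higher) and on day 6 (6.46% lower, 5.74% higher). By day 9 both Vegfa and P4ha1 were lower, when 1.91% of all genes were lower and 2.65% higher. The counts at days 1, 3 and 6 are near these shares. The 10 genes' median differences from day 0 were, in order of time, -0.44, -0.61, -0.31, -0.40 and -0.72, with medians over all genes between -0.02 and 0.029. From 8 to 10 of the 10 members lay below their day 0 mean at each time, called or not. Most members vary together within groups, as given below, so these are not 10 separate observations. All of these comparisons share the same 4 day 0 tumours. A high day 0 tumour therefore lowers every one of them, and day 0 tumour 1 had the highest value of its group in 8 of the 10 genes, all but Car9 and Egln3. Against day 1, which shares no tumour with day 0, P4ha1 and Car9 were lower in the late tumours (2 of 10, background 22.8% lower and 28.9% higher), and the median of the 10 was -0.32 beside 0.058 over all genes. The count of 2 lower is near its share. The macrophage and T and NK cell markers were lower in that comparison too, as given above, and their part in these calls was not tested.

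**Figure D1:**
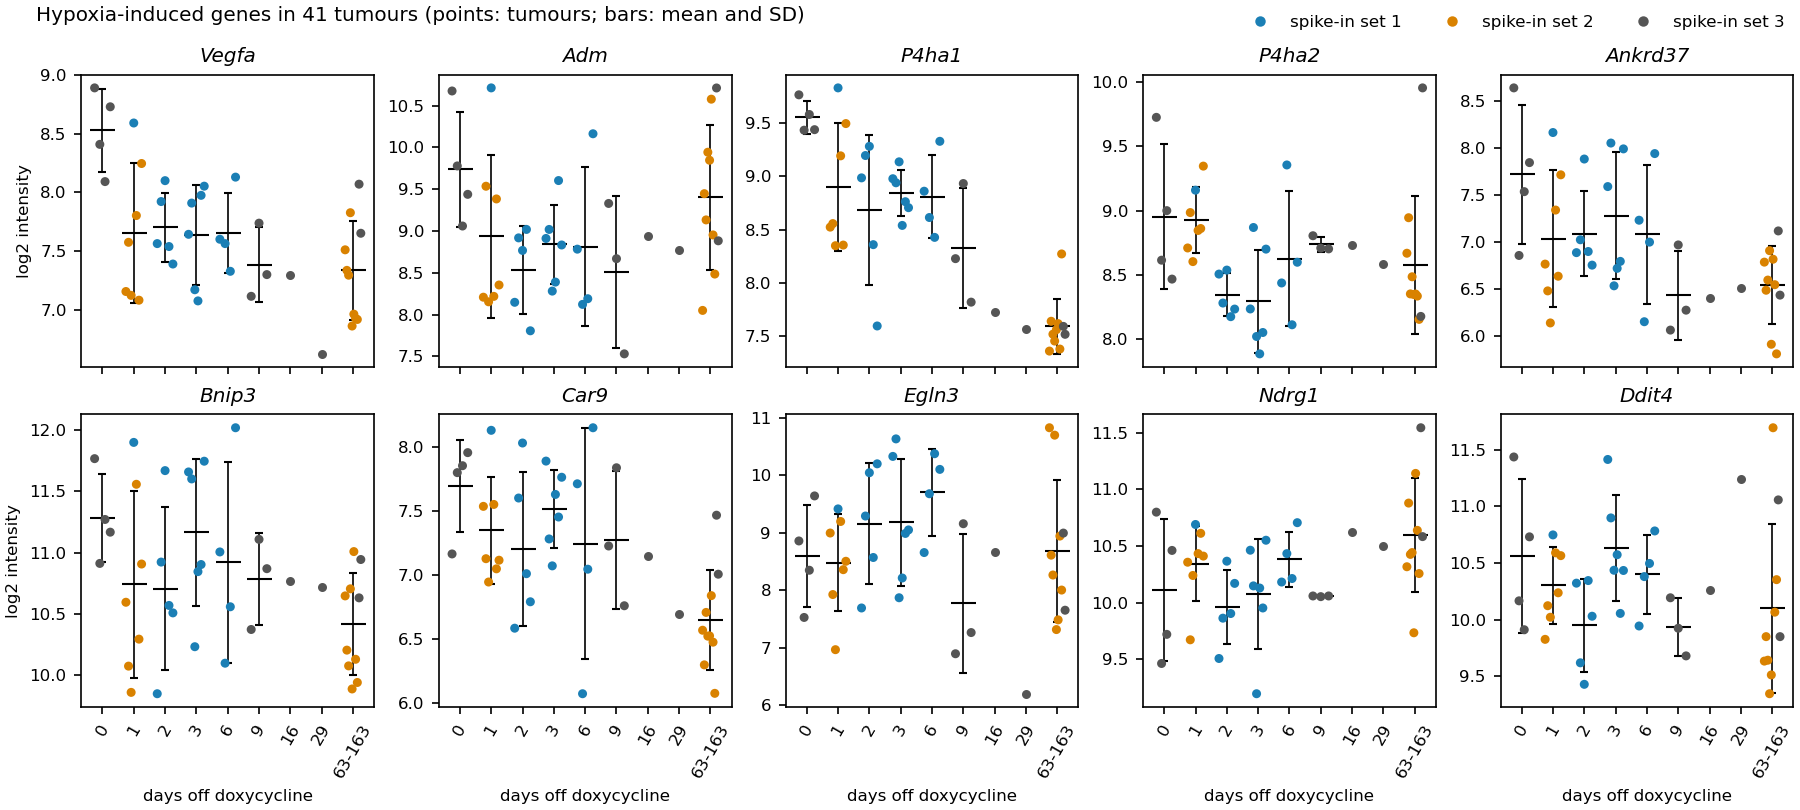
Each panel shows 1 hypoxia-induced gene, with log2 intensity against days off doxycycline; points are tumours coloured by spike-in set, and bars are the mean and SD of each group with over 1 tumour. P4ha1 sits between 9.43 and 9.76 at day 0 and between 7.36 and 8.27 in the late tumours. The SD of Egln3 runs from 0.755 (day 6) to 1.241 (late tumours).

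Vegfa encodes the vascular endothelial growth factor, the main signal for new blood vessels. Its 4 day 0 tumours stood at 8.09, 8.41, 8.73 and 8.89 log2 intensity. The 7 day 1 tumours ran from 7.08 to 8.59 with a median of 7.57, and the 5 day 2 tumours were at 7.39, 7.54, 7.56, 7.92 and 8.10. Most early tumours therefore lay below every day 0 tumour, 5 of 7 at day 1 and 4 of 5 at day 2. Day 3 ran from 7.08 to 8.05, day 6 was at 7.33, 7.56, 7.60 and 8.13, and day 9 at 7.11, 7.30 and 7.74. All day 3 and day 9 tumours were below the lowest of day 0, and 1 of the 4 day 6 tumours was not. Days 16 and 29 gave 7.29 and 6.62, the latter the lowest of all 41 tumours, and the late tumours ran from 6.86 through a median of 7.32 to 8.07, again all under day 0.

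In the brighter probe set, 1420909_at, which stands for the gene, the differences of Vegfa from day 0 were nearly the same from day 1 to day 6: -0.88 ± 0.26 (SE), -0.83 ± 0.28, -0.89 ± 0.27 and -0.87 ± 0.30 on the log2 scale, with limma adjusted p of 0.0227, 0.0409, 0.0171 and 0.0461. Day 9 was at -1.15 ± 0.32 (adjusted p = 0.0317) and the late tumours at -1.19 ± 0.25 (adjusted p = 1.94e-04). The early calls rest on few tumours. Leaving out day 0 tumour 1 or day 0 tumour 4 ended each of the calls at days 1, 2, 3, 6 and 9, with adjusted p of 0.088 and 0.0887 at day 1 and 0.0727 and 0.0666 at day 3. At day 1 so did leaving out day 1 tumour 1 (0.0519) or 6 (0.05). At day 2 the same happened without day 0 tumour 2 or without day 2 tumours 1, 4 or 5, at day 6 without day 0 tumour 2 or day 6 tumours 1, 2 or 3, and at day 9 without day 9 tumours 1 or 3. Blocking on the spike-in set gave -0.38 at day 1 (0.545) and, on days 2, 3 and 6, -1.26, -1.33 and -1.31 (0.248, 0.21 and 0.244). Day 9, which shares its set with day 0, kept its call in the blocked fit (-1.15, 0.0141) and lost it when only the third set was fitted (-1.15, 0.162). The late call held without each tumour in turn. Blocked in the same way the late difference was -0.67 (adjusted p = 0.106). Within the third set, on 4 day 0 and 2 late tumours, it was -0.67 (adjusted p = 0.113). The blocked value rests on the same 2 late tumours.

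The second Vegfa probe set, 1451959_a_at, had a narrower spread, with 7.38, 7.49, 7.55 and 7.56 at day 0 and 6.16 to 6.56 in the late tumours. Its late difference was -1.12 ± 0.18 (limma adjusted p over all probe sets = 5.53e-06), close to that of the first. Unlike the first it was also lower in the late tumours than at day 1, by -0.62 ± 0.15 (adjusted p = 7.25e-04), where the first gave -0.32 ± 0.21 (adjusted p = 0.195). The mean of the probe sets was lower than at day 1 by -0.47 (adjusted p = 0.0177). The second probe set averaged 7.494 at day 0 and 6.996, 7.025, 6.89 and 7.115 at days 1, 2, 3 and 6. The first averaged 8.529 at day 0 and 7.653, 7.702, 7.637 and 7.655 on those days, so its early differences were larger. The difference between the probe sets was not tested.

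The lists of related genes below are to be read against the shares over all genes, 26.3% higher and 20.1% lower late against day 0, and 28.9% and 22.8% late against day 1. Among the VEGF family and its receptors, 3 of 9 genes were higher and 3 lower in the late tumours than at day 0, with a list median of -0.16. Flt4, the receptor of lymphatic endothelium, was 1.41 ± 0.26 higher (limma adjusted p = 4.55e-05) and its ligand Vegfd 1.02 ± 0.31 higher (0.00699). The placental growth factor Pgf was -1.10 ± 0.30 (0.00345) and Flt1, a receptor of both Vegfa and Pgf, -0.82 ± 0.24 (0.00617). The third higher gene was Vegfc and the third lower one Vegfb. Against day 1, Flt4 and Vegfc were higher and Vegfb lower, by -0.87 ± 0.10 (6.93e-08).

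Adm encodes adrenomedullin, a secreted peptide that widens vessels. Day 0 gave 9.06, 9.44, 9.78 and 10.68 log2 intensity, and the late tumours ran from 8.05 through 9.29 to 10.71. The late group thus covered the whole day 0 range and went beyond it on both sides. Adm differed from day 0 by -0.80 ± 0.49 (SE) at day 1, by -1.21 ± 0.52 at day 2, where all 5 tumours (7.81 to 9.02) lay below all 4 of day 0, and by -0.34 ± 0.46 in the late tumours, and no comparison passed the test (lowest limma adjusted p 0.111, at day 2). Its receptor genes were called: Ramp2, Ramp1 and Calcrl were 1.74 ± 0.27, 1.44 ± 0.28 and 1.16 ± 0.25 higher in the late tumours (adjusted p = 5.28e-06, 8.34e-05 and 2.51e-04), while Ramp3 was at -1.39 ± 0.34 (0.0012), so that all 4 changed. Calcrl encodes the receptor itself and the Ramp proteins decide which peptide it binds. Calcrl and Ramp2 are abundant in endothelium. Of 10 endothelial markers 4 were also higher in these tumours, beside 26.3% of all genes. The part of endothelium in the receptor calls was not tested.

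P4ha1 encodes a catalytic subunit of the prolyl 4-hydroxylase that stabilises collagen. Day 0 was tight, at 9.43, 9.44, 9.58 and 9.76 log2 intensity. Day 1 ran from 8.35 through 8.56 to 9.83, day 2 was at 7.60, 8.36, 8.98, 9.19 and 9.28, and day 3 ran from 8.54 to 9.13. From day 2 on, no tumour of any group reached the lowest day 0 value. Day 6 was at 8.43, 8.61, 8.86 and 9.33, day 9 at 7.82, 8.23 and 8.93, and days 16 and 29 at 7.73 and 7.57. The late tumours ran from 7.36 through 7.54 to 8.27, below every tumour of day 1 as well as of day 0. In order of their means the groups were day 0 (9.55 ± 0.16, SD), day 1 (8.90 ± 0.60), day 3 (8.84 ± 0.21), day 6 (8.81 ± 0.39), day 2 (8.68 ± 0.71), day 9 (8.33 ± 0.56) and late (7.59 ± 0.26). From day 1 to day 9 each neighbouring pair in that order lies within the spread of its tumours.

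The late difference of P4ha1 from day 0 was -1.96 ± 0.25 (SE; limma adjusted p = 2.99e-07), and that from day 1 -1.31 ± 0.21 (adjusted p = 6.17e-06). The call against day 0 held under every alternative and without each tumour in turn, with differences of -2.05 to -1.57. With only the 2 late tumours of Gapdh difference under 2 it was -1.63 (adjusted p = 0.00368), within the third spike-in set -1.99 (adjusted p = 0.00721), and the late tumours against day 1 within the second set gave -1.14 (adjusted p = 3.05e-04). Against day 1 the low-gap tumours gave -0.98, which missed the threshold (adjusted p = 0.0526). At day 2 the difference was -0.87 ± 0.29 (adjusted p = 0.0354) and at day 9 -1.22 ± 0.32 (adjusted p = 0.0238). Each of these calls ended without day 0 tumours 1 or 4, that of day 2 also without day 0 tumour 3 or day 2 tumours 4 (0.0784) or 5 (0.154), and that of day 9 also without day 9 tumours 1 (0.0741) or 3 (0.291). Blocking on the spike-in set gave -2.00 on day 2 (0.0909), while day 9 stood at -1.22 in the blocked fit (0.0163) and in the third set alone (0.162). At day 1 P4ha1 was not called (adjusted p = 0.0969), and it was without day 1 tumour 4, which held the highest value of the group (0.0259). The second probe set, 1426519_at, agreed late (-1.99 ± 0.29) and at day 9 (-1.47 ± 0.37) but not early: it was at 0.09 ± 0.32 at day 3 and -0.03 ± 0.35 at day 6, where the first gave -0.71 ± 0.27 and -0.74 ± 0.30. This second probe set was dim, at 4.89 to 6.42 log2 intensity in the late tumours. It lay above the 40th percentile in 30 of the 41 arrays, and the first did so in all 41.

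P4ha2, the other catalytic subunit, did not pass in any comparison. It stood at 8.47, 8.62, 9.00 and 9.73 at day 0 and from 8.16 to 9.95 late, with a median of 8.35. The late difference was -0.37 ± 0.24 (limma adjusted p = 0.206), and it turned on late tumour 10, the highest of all 41 tumours: without it P4ha2 was at -0.53 (adjusted p = 0.0291), and at -0.51 against day 1 (adjusted p = 0.012). Of 10 genes of collagen hydroxylation and collagens, 5 were lower and 1 higher late, beside 20.1% and 26.3% of all genes, with a list median of -0.57. The prolyl 3-hydroxylase P3h1 was at -1.58 ± 0.24 (adjusted p = 3.85e-06), the lysyl hydroxylase Plod3 at -0.75 ± 0.16 (2.55e-04) and P4hb, the shared beta subunit of the prolyl 4-hydroxylase, at -0.69 ± 0.17 (0.00108), whereas P3h2 was 0.90 ± 0.25 higher (0.00383). Against day 1, 6 were lower and 1 higher.

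**Figure D2:**
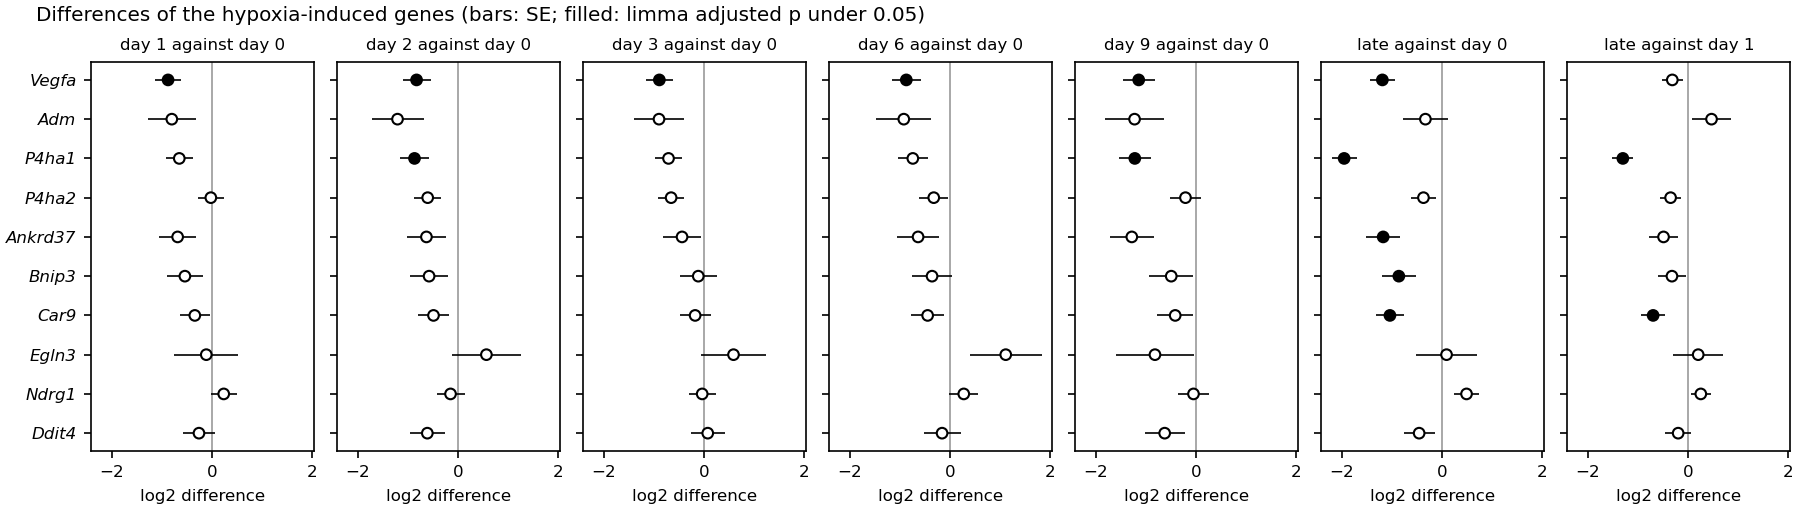
Log2 differences (horizontal axis) of the 10 hypoxia-induced genes in the 7 comparisons, with SE as bars and filled points for a limma adjusted p under 0.05. Every filled point is on the left of 0, and P4ha1 in the late tumours lies furthest left, at -1.96.

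Ankrd37, an ankyrin repeat protein known mainly as a HIF target, and Bnip3, which sits on the outer mitochondrial membrane and promotes removal of mitochondria, behaved alike. Ankrd37 was at 6.85, 7.53, 7.84 and 8.64 log2 intensity at day 0 and from 5.81 through 6.57 to 7.11 late, with 8 of 10 late tumours below all of day 0. Bnip3 was at 10.91, 11.17, 11.27 and 11.77 at day 0 and from 9.88 through 10.42 to 11.01 late, again 8 of 10 below. So in both genes 2 late tumours overlapped the lowest day 0 tumour, which was tumour 2. Ankrd37 was lower late by -1.18 ± 0.34 (SE; limma adjusted p = 0.0055), a call that ended without day 0 tumour 1 (-0.87, adjusted p = 0.0585). Bnip3 was lower by -0.86 ± 0.34 (adjusted p = 0.0365) and that call was the weakest of the 5: it ended without day 0 tumours 1 (0.141), 3 (0.0684) or 4 (0.0599), and without late tumours 3 (0.0537), 5 (0.0544), 7 (0.052) or 8 (0.0527). Within the third spike-in set the differences were -0.94 (adjusted p = 0.189) and -0.49 (adjusted p = 0.238), and blocking on the set gave the same values with adjusted p of 0.139 and 0.457. With only the 2 late tumours of low Gapdh difference Bnip3 stood at -1.37 (0.0588).

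Before the late group neither gene passed. Ankrd37 differed from day 0 by -0.69, -0.63, -0.44, -0.64 and -1.28 at days 1, 2, 3, 6 and 9, with SE of 0.36 to 0.44, and its day 9 tumours were at 6.06, 6.27 and 6.96 (adjusted p = 0.0843). Leaving out day 0 tumour 2 or day 9 tumour 2 made that difference pass (0.0381 and 0.0477). Bnip3 differed by -0.54, -0.58, -0.12, -0.36 and -0.50. Its day 3 tumours fell at 10.23, 10.84, 10.90, 11.60, 11.66 and 11.75, so that 3 of the 6 lay inside the day 0 range.

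Of 10 regulators of mTORC1 and mitophagy, the processes in which Ddit4 and Bnip3 take part, 5 were higher and 1 lower in the late tumours, beside 26.3% and 20.1% of all genes, with a median of 0.31. Sesn1 was 1.55 ± 0.21 higher and Pink1, a kinase that marks damaged mitochondria, 1.43 ± 0.20 higher (limma adjusted p = 4.99e-07 and 1.40e-06). Rheb, the activator of mTORC1, was 0.33 ± 0.08 higher (8.00e-04). The 1 lower gene was Sesn2, at -1.69 ± 0.26 (4.01e-06).

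Car9 encodes a carbonic anhydrase of the cell surface that helps tumour cells export acid. Day 0 gave 7.17, 7.80, 7.85 and 7.96 log2 intensity and the late tumours ran from 6.08 through 6.55 to 7.47, with 9 of 10 below all of day 0. Late tumour 9 was the one that was not. Day 1 ran from 6.95 through 7.13 to 8.13 and 8 of 10 late tumours lay below all of those too. The late difference was -1.04 ± 0.28 (SE; limma adjusted p = 0.00288) from day 0 and -0.70 ± 0.23 (adjusted p = 0.0126) from day 1. Both calls held without each tumour in turn. Within the second spike-in set the late tumours were -0.72 against day 1 (adjusted p = 4.65e-04), whereas within the third they were -0.46 against day 0 (adjusted p = 0.359), and -0.46 when blocked on the set (adjusted p = 0.386). Without the tumours of high Gapdh difference the value against day 1 was -1.05 (adjusted p = 0.0505), and with that difference as a covariate -0.74 (0.0922). From day 1 to day 9 Car9 lay -0.49 to -0.18 from day 0 and never passed, and its 4 day 6 tumours were far apart, at 6.08, 7.05, 7.71 and 8.15. Of 5 other carbonic anhydrases Car2, a soluble enzyme of the cytoplasm, was 2.12 ± 0.69 higher late (0.0123) and none was lower. Against day 1 Car12, another surface enzyme and HIF target, was 1.88 ± 0.55 higher (0.00508) and Car4 lower by -0.71 ± 0.24 (0.014).

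Egln3 encodes one of the prolyl hydroxylases that sense oxygen, and is itself induced by HIF. It had the widest spread of the 10 genes in the late group: 7.32 to 10.83 with a median of 8.44, while day 0 was at 7.53, 8.35, 8.86 and 9.64. Late tumours 1 and 4 stood at 10.83 and 10.70, and the day 29 tumour at 6.20 was the lowest of all. Day 6 was at 8.66, 9.68, 10.11 and 10.38, with 3 of 4 above every day 0 tumour, and differed by 1.11 ± 0.72 (SE; limma adjusted p = 0.327). No comparison passed the test, and the late difference was 0.09 ± 0.60 (adjusted p = 0.918). Its SE was the largest of the 10 genes in each comparison.

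Among the HIF subunits and their regulators few were called, with 2 higher and 2 lower of 17 in the late tumours and a median of 0.14. Hif1a, the main oxygen-regulated subunit, was at 11.27 ± 0.24 (SD, n = 10) late and 11.36 ± 0.10 (SD, n = 4) at day 0 and did not pass (limma adjusted p = 0.598). Epas1, which encodes HIF-2 alpha and is strong in endothelium, was 1.13 ± 0.32 higher (0.00435) and Arnt2, a neural relative of ARNT, 0.65 ± 0.19 higher (0.00474). Rbx1 and Siah2, both parts of ubiquitin ligases in this pathway, were at -0.71 ± 0.19 (0.00296) and -0.43 ± 0.14 (0.0145). Against day 1, 5 were higher and 2 lower, among them Cul2, the scaffold of the von Hippel-Lindau ligase (0.27 ± 0.05, 4.24e-05), and Egln2 (-0.45 ± 0.13, 0.00479).

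Ndrg1, a stress-induced gene of differentiation and of myelinating Schwann cells, was the only member above day 0 in its late mean by more than 0.4: 9.46, 9.72, 10.46 and 10.80 log2 intensity at day 0 and 9.74 through 10.51 to 11.55 late. The groups overlapped, with 3 of 10 late tumours above all of day 0, and the difference of 0.49 ± 0.25 (SE) did not pass (limma adjusted p = 0.104). Without day 0 tumour 1 it did (0.72, adjusted p = 0.0295), as it did without late tumour 5 (0.58, 0.0415). It also passed when blocked on the spike-in set (0.95, 0.0372), but not within the third set alone (0.95, 0.126). On the late side both 0.95 values rest on tumours 9 and 10 alone. With only the 2 late tumours of low Gapdh difference Ndrg1 was at -0.12 (adjusted p = 0.841). Schwann cell markers were higher in the late tumours, as given above, and the part of such cells in Ndrg1 was not tested. Of 3 relatives, Ndrg2 was 1.84 ± 0.29 higher (6.35e-06) and Ndrg3 0.73 ± 0.14 higher (5.79e-05), and Ndrg4 did not pass.

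The 5 Ndrg1 probe sets disagreed in the late tumours. Of these, 1420760_s_at, 1456174_x_at and 1450976_at stood 0.49, 0.52 and 0.46 above day 0 without passing, while 1450977_s_at was lower by -0.67 ± 0.25 (limma adjusted p over all probe sets = 0.0232) and 1423413_at stood at -0.66 ± 0.32 (0.0854). Against day 1, 1456174_x_at was higher by 0.53 ± 0.22 (0.048) and 1450977_s_at lower by -0.58 ± 0.20 (0.0168). Over all 18 member probe sets 8 were lower and 0 higher than day 0 in the late tumours, where 24.9% of all 25803 probe sets were lower and 23.7% higher. Against day 1, 5 were lower and 1 higher, where the shares were 25% and 25.8%, so the count of 5 lower is near its share.

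Some of these probe sets moved with RNA quality. Across the 10 late tumours, 1450977_s_at decreased with the Gapdh 3′ minus 5′ difference (Pearson r = -0.918, permutation p = 8e-05, adjusted over 18 probe sets 0.00126; Spearman rho = -0.891, permutation p = 0.00102), with r = -0.925 without the 2 tumours farthest from the median. The second P4ha1 probe set did so too (r = -0.874, permutation p = 1.4e-04, adjusted 0.00126; rho = -0.855, permutation p = 0.00307; r = -0.712 without the 2 tumours). The first P4ha1 probe set gave r = -0.619 (permutation p = 0.0461, adjusted 0.207, rho = -0.418, permutation p = 0.233), and -0.136 without those 2 tumours. They were late tumours 5 and 8, the only late tumours with a Gapdh difference under 2. Leaving them out narrows the range of that difference, so the drop in r cannot decide whether this probe set moved with RNA quality. Ndrg1 1423413_at gave r = -0.726 (permutation p = 0.0178, adjusted 0.107; rho = -0.745, permutation p = 0.017), and -0.938 without the same 2 tumours. None of the other 14 passed, among them every probe set of Vegfa, Ankrd37, Bnip3 and Car9. With all 10 tumours Ndrg1 1420760_s_at, 1456174_x_at and 1450976_at gave r of 0.312, 0.534 and 0.05. Without late tumours 5 and 8 they gave -0.497, -0.022 and -0.688. Among the 8 late tumours of the second spike-in set r was -0.922 for 1450977_s_at, -0.889 for the second and -0.647 for the first P4ha1 probe set, and it was positive for Ankrd37 (0.829) and the first Vegfa probe set (0.632). The gene-level value of P4ha1 was taken from the probe set with the weaker relation. These relations were examined after the values had been seen.

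**Figure D3:**
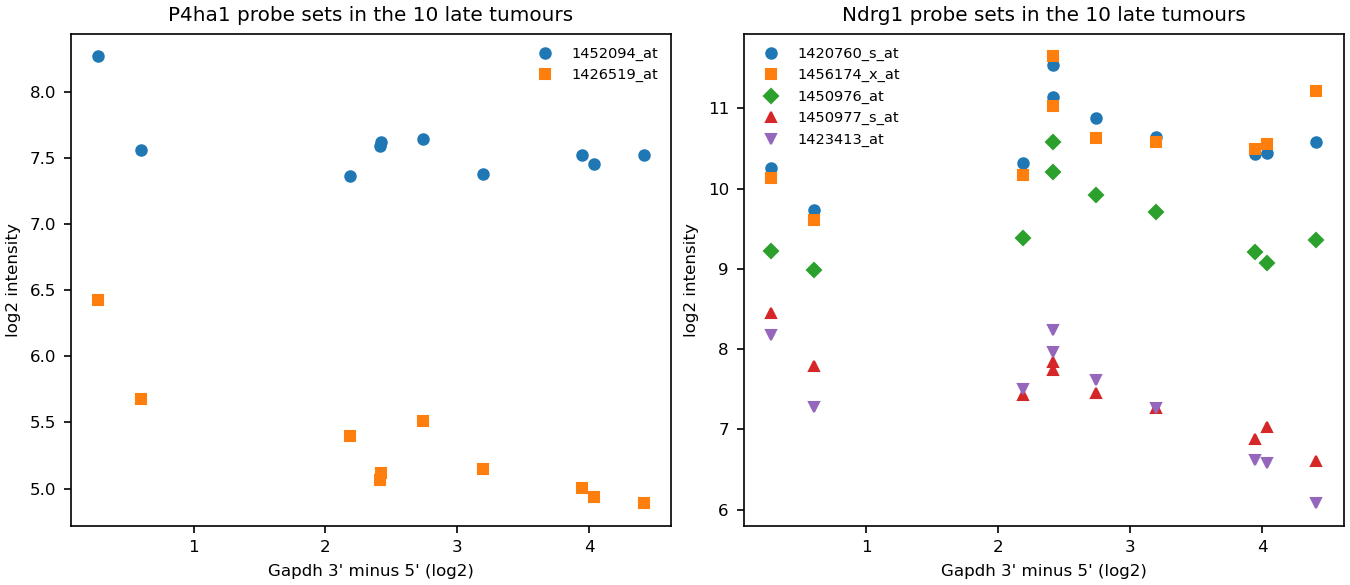
Log2 intensity of the P4ha1 and Ndrg1 probe sets in the 10 late tumours, against the Gapdh 3′ minus 5′ difference (log2), which rises with RNA breakdown. The probe sets 1426519_at and 1450977_s_at run downward (r = -0.874 and -0.918), while the brightest Ndrg1 probe sets do not over all 10 tumours.

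Ddit4 (also called REDD1), an inhibitor of mTORC1 induced by hypoxia, glucocorticoids and ATF4, stood at 9.91, 10.17, 10.73 and 11.44 log2 intensity at day 0. The late tumours ran from 9.35 through 9.85 to 11.69, and 6 of 10 lay below all of day 0 while late tumour 6 lay above all of it. The late difference was -0.46 ± 0.31 (SE; limma adjusted p = 0.223), and -0.64 without tumour 6 (adjusted p = 0.0487). The day 29 tumour was high, at 11.24. No early comparison passed, with differences of -0.63 at day 9 to 0.07 at day 3. Genes that respond to its other inducers went in different directions in the late tumours: of 8 glucocorticoid-induced genes 4 were higher and 0 lower (Tsc22d3 1.95 ± 0.38, adjusted p = 9.29e-05, and Fkbp5 0.95 ± 0.39, 0.0441, among them), and of 12 ATF4 target genes 1 was higher and 6 lower (Phgdh, of serine synthesis, -1.07 ± 0.20, 5.72e-05; Asns, asparagine synthetase, -0.87 ± 0.25, 0.00428). Their list medians were 0.79 and -0.50, and over all genes 26.3% were higher and 20.1% lower.

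Other targets of HIF gave a wider view. Of 18 glycolytic genes tested, 11 were lower and 1 higher in the late tumours than at day 0, with a median of -0.85 beside 0.045 over all genes, and 10 were lower and 0 higher than at day 1 (median -0.63). Over all genes 20.1% were lower and 26.3% higher than at day 0, and 22.8% and 28.9% than at day 1. Pkm, the last enzyme of glycolysis, was at -1.62 ± 0.19 (SE, limma adjusted p = 8.63e-08) and Pgam1 at -1.33 ± 0.18 (8.52e-07). Hk1 and Pfkl, which catalyse early steps, were at -1.64 ± 0.21 (3.34e-07) and -1.83 ± 0.24 (4.33e-07). The early comparisons called 0 to 3 of the 18 lower and 0 or 1 higher, where 1.91% to 11.6% of all genes were lower and 2.65% to 9.74% higher. Gapdh belongs to this list, and its level and its 3′ minus 5′ difference come from the same transcript.

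Of 25 other HIF targets tested, 8 were lower and 4 higher late, with a median of -0.19, beside 20.1% of all genes lower and 26.3% higher. Stc1, which encodes the secreted hormone stanniocalcin, had the furthest fall, from 10.67 ± 0.92 (SD, n = 4) to 7.58 ± 1.03 (SD, n = 10), a difference of -3.09 ± 0.52 (SE; limma adjusted p = 1.38e-05). The lysyl hydroxylases Plod1 and Plod2, which prepare collagen for crosslinking, were at -1.28 ± 0.18 (1.59e-06) and -1.30 ± 0.22 (1.64e-05), and the lactate exporter Slc16a3 at -1.12 ± 0.22 (1.00e-04). Against day 1, 8 were lower and 5 higher. The higher ones included the nuclear receptor Rora (1.29 ± 0.24, 4.41e-05) and Insig2, a brake on sterol synthesis (0.75 ± 0.12, 6.94e-06). The early comparisons called 0 to 4 of the 25 lower and 0 higher, where 1.91% to 11.6% of all genes were lower and 2.65% to 9.74% higher. At day 9 none was called in either direction, near the shares of 1.91% lower and 2.65% higher.

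From tumour to tumour within a group, most members varied together. Deviations from the group mean were compared over the 39 tumours of groups with more than 1 tumour. Of the 45 pairs of members 43 had a positive Pearson r, with a median of 0.403, and 25 passed at an adjusted p under 0.05 (permutation within groups, adjusted over the 45 pairs). The closest pair was Ankrd37 with Bnip3 (r = 0.861, permutation p = 1e-05, the smallest the 100000 permutations can give, adjusted 2.25e-04; Spearman rho = 0.868, permutation p = 1e-05), with r = 0.843 without the 2 tumours farthest from the median. Vegfa with Ankrd37 gave 0.765 (permutation p = 1e-05, adjusted 2.25e-04; rho 0.773) and Bnip3 with Car9 0.701 (permutation p = 3e-05, adjusted 2.25e-04; rho 0.653). Without the 2 farthest tumours these were 0.722 and 0.621.

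By Pearson's r P4ha2 passed with Vegfa alone (r = 0.403, permutation p = 0.0143, adjusted 0.0321; rho 0.473), and by Spearman's rho also with Ankrd37 and Bnip3 (adjusted 0.045 and 0.0364 by permutation). P4ha2 with Car9 had the lowest r of all pairs, -0.124 (permutation p = 0.504, adjusted 0.613; rho = -0.045). P4ha1, the gene that fell furthest, passed with Vegfa, Ankrd37 and Bnip3, at r of 0.526, 0.495 and 0.464 (adjusted 0.00638, 0.00894 and 0.0327 by permutation), and Ddit4 passed with Ndrg1, Adm and Ankrd37, at 0.575, 0.409 and 0.363 (adjusted 0.00744, 0.0335 and 0.0402 by permutation). By Spearman's rho Ddit4 passed with Ndrg1 (adjusted 0.0108) but not with Adm (0.128) or Ankrd37 (0.082), by permutation. The pairs of Adm leaned on few tumours: its r with Vegfa dropped from 0.458 to 0.276, and with Bnip3 from 0.408 to 0.216, without the 2 farthest tumours. Within the spike-in sets the median r over the 45 pairs was 0.414 (15 tumours), 0.245 (14 tumours) and 0.453 (9 tumours), and Ankrd37 with Bnip3 gave 0.905, 0.833 and 0.744. Bnip3 with Car9 did not hold in the third set, with r of 0.853, 0.658 and -0.275. Day 1 tumour 4 and day 6 tumour 4 carried the highest values of their groups in Vegfa, Ankrd37, Bnip3, Car9, P4ha1, Ndrg1 and Adm, so the same tumours were high across most members.

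**Figure D4:**
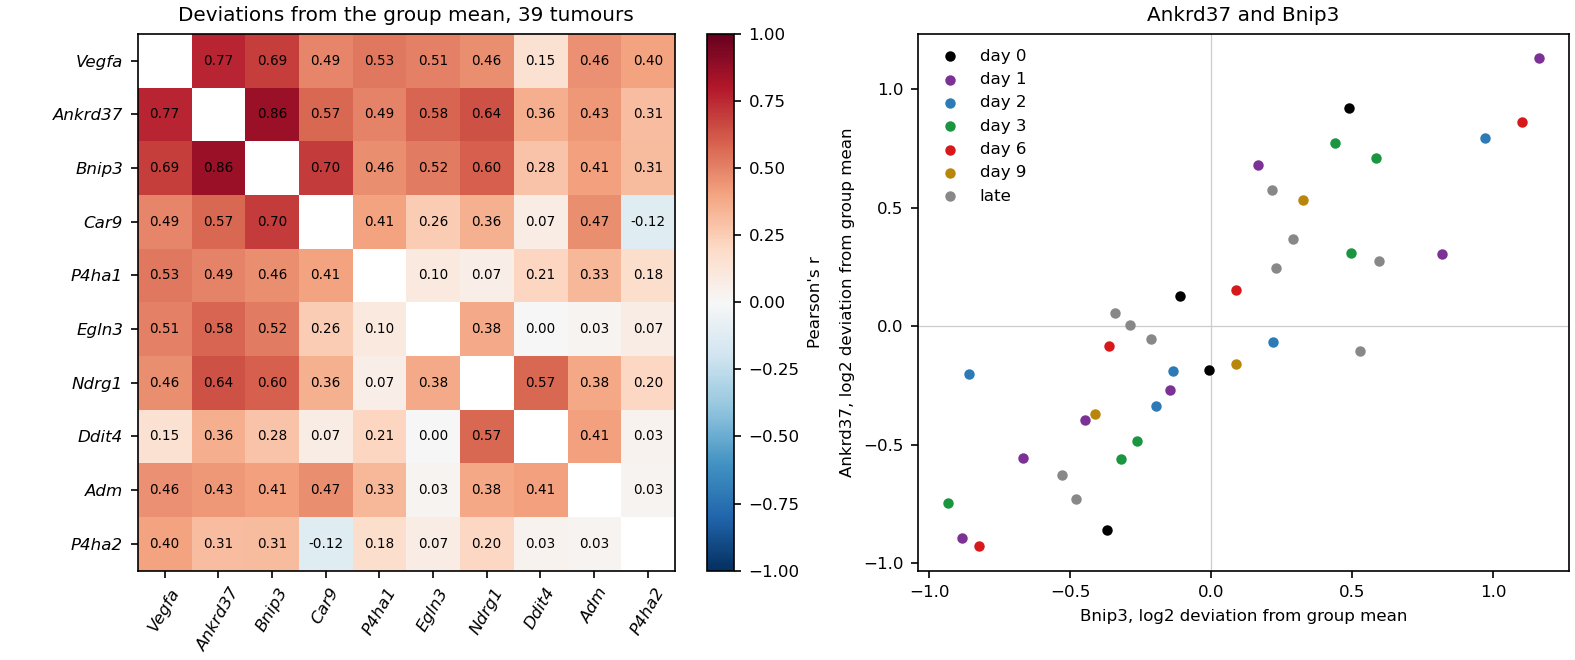
Left, Pearson's r between deviations from the group mean for each pair of hypoxia-induced genes over 39 tumours; right, the log2 deviations of Ankrd37 against those of Bnip3, 1 point a tumour, coloured by group. All but 2 pairs are above 0, and Ankrd37 and Bnip3 deviate together (r = 0.861).

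The members were also set against the mean log2 level of 10 cell type marker lists within groups, 100 relations chosen after the values had been seen, and 3 passed. Egln3 was higher with keratinocyte markers (r = 0.703, permutation p = 1e-05, adjusted over the 100 relations 5e-04; rho = 0.673, permutation p = 3e-05, adjusted 0.0015), and r was 0.657 without the 2 tumours farthest from the median. Within the spike-in sets it was 0.732, 0.652 and 0.715. Keratinocyte content varied widely, with summed intensities of 1010 to 14239 at day 0 and 585 to 50869 late, although skin was trimmed from the tumours. Car9 was lower with fibroblast markers (r = -0.763, permutation p = 1e-05, adjusted 5e-04; rho = -0.722, permutation p = 2e-05, adjusted 0.0015; -0.688 without the 2 tumours), with -0.889, -0.264 and -0.911 within the sets, so it was weak in the second. Car9 was also lower with endothelial markers (r = -0.648, permutation p = 3.5e-04, adjusted 0.0117; rho = -0.599, permutation p = 6.3e-04, adjusted 0.021; -0.527 without the 2 tumours), with -0.842, -0.548 and -0.579 within the sets. No member passed with melanocyte or macrophage markers.

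**Figure D5:**
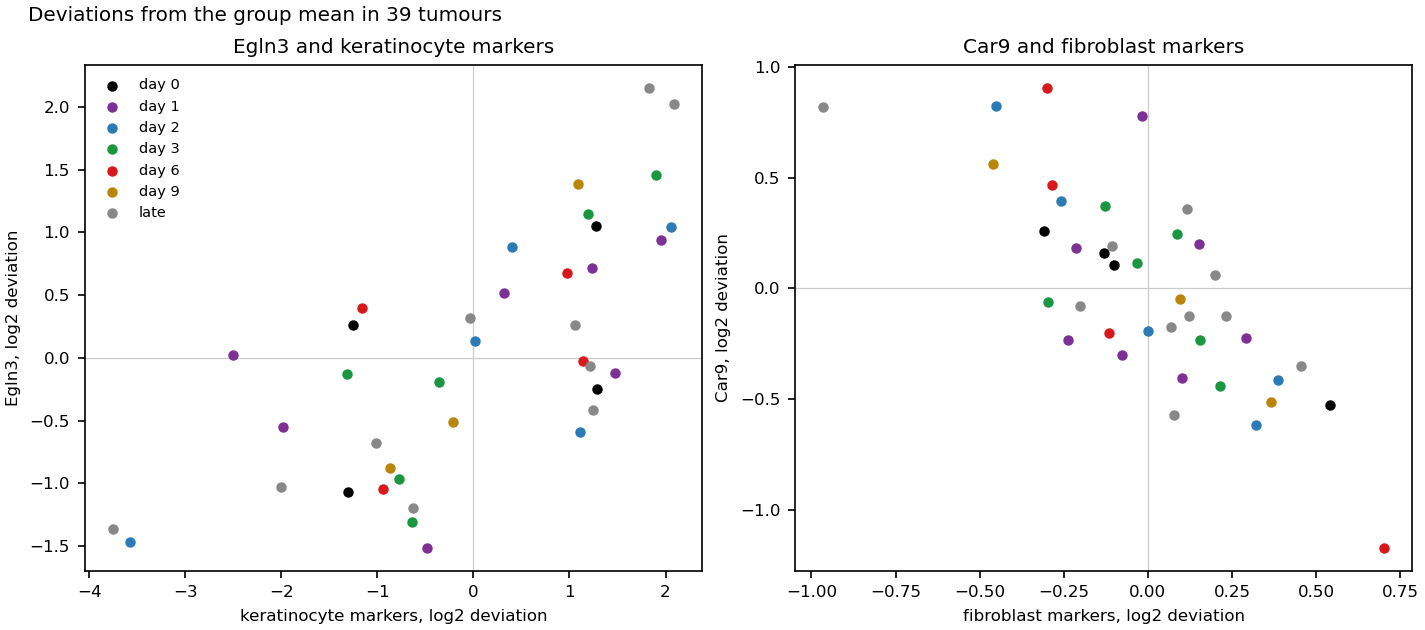
Log2 deviations from the group mean in 39 tumours, for Egln3 against the mean of 9 keratinocyte markers (left) and Car9 against the mean of 10 fibroblast markers (right), 1 point a tumour. Egln3 climbs with keratinocyte markers (r = 0.703) and Car9 declines with fibroblast markers (r = -0.763).

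Over all 41 tumours the genes outside the 10 whose levels were most like each member, among 14309, are given as a description. Ero1a, an oxidase of the endoplasmic reticulum and a HIF target, was nearest to Vegfa (r = 0.873) and Ankrd37 (0.882). Mgarp, a mitochondrial protein, was nearest to Bnip3 (0.889) and Car9 (0.801). Next came Dusp4 (0.792), a phosphatase of the MAPK pathway, and 9130008F23Rik (0.786) for Vegfa, Mgarp (0.845) and Grhpr (0.793) for Ankrd37, Pdk1 (0.812) and Ero1a (0.71) for Bnip3, and Grhpr (0.8) and Pgm1 (0.786) for Car9. The neighbours of Egln3 were Fam162a (0.881), Wnt4 (0.826) and Sprr2d (0.819), the last a protein of the epidermal envelope. P4ha1 was nearest to Sars (0.882), the serine transfer RNA synthetase, then Mmgt2 (0.876) and Tes (0.872), and within groups these dropped to 0.587, 0.588 and 0.583. Adm was nearest to Hmox1 (0.689), haem oxygenase, then Slc25a33 (0.679) and Pf4 (0.672). Ndrg1 was nearest to Tacc1 (0.73), Parp6 (0.697) and Fads6 (0.696), P4ha2 to Akap6 (0.709), Sall2 (0.69) and Prr12 (0.661), and Ddit4 to Epn2 (0.76), Hif3a (0.728) and Ecm1 (0.686). The 41 tumours share groups, spike-in sets and differences in RNA quality.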

How the data were processed

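RNA from 41 iBIP mouse melanomas was labelled with biotin (per the labels' protocols) and measured on Affymetrix 430 2.0 arrays. The deposited values are 1 linear intensity per probe set and array; the submitters' processing notes list RMA and MAS5 without versions, and which one made the values is not given in the sources used here. Arrays carry no read depth, and the number of tumours limits the precision.

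Values were turned into log2(intensity + 16) and quantile normalised, so differences of dim genes are understated. Of 45101 probe sets 34958 named 1 gene, 932 several and 9211 none, and no symbol needed an update. The brightest probe set stood for each of 18194 genes, and 14319 were tested, those above the 40th percentile in at least 3 arrays. A limma 3.58.1 fit in R 4.3.3 with 1 mean per group over all 41 tumours (32 residual and 2.58 prior degrees of freedom) gave Benjamini-Hochberg adjusted p-values, called under 0.05. The fit was tested on simulated data with independent noise. The simulation held no spike-in set or RNA quality differences, so it does not bear on their part in the calls. Spike-in sets were cut at 12 (bioD) and 9.4 (dap) log2 intensity. Correlations used 100000 permutations, two-sided, within groups where deviations were compared (Python 3.11.15, numpy 2.4.6). Figures used matplotlib 3.10.9. Gene positions and promoters are RefSeq's (GRCm38.p6).

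The members, gene lists and the naming rule were chosen with earlier results of these data known. Named are all 10 members, up to 4 genes of each list with the lowest p in the late comparisons, and the 3 genes nearest to each member. Relations with marker lists and with the Gapdh difference, correlations within spike-in sets, and the late tumours up to day 121 against day 1 were added after the values were seen. Alternatives covered scaling, pseudocount, filter, probe set choice, groups in the fit, spike-in set, Gapdh difference, fold limit, and leaving out each tumour.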

Additional observations from a re-analysis of the deposited data

Results flagged for a closer look

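Among 60 gene and group pairs of 4 to 10 tumours, 3 had a tumour that stood apart by Dixon's test at the 95% level, which chance alone gives in about 1 of 20 pairs. Ankrd37 was at 7.88 in day 2 tumour 3, against 6.75 to 7.02 in the other 4. P4ha1 was at 8.27 in late tumour 8, against 7.36 to 7.64 in the other 9, and this tumour also had the smallest Gapdh 3′ minus 5′ difference of the late group (0.28). P4ha2 was at 9.95 in late tumour 10, against 8.16 to 8.94 in the other 9, and this tumour had the largest Gapdh difference (4.41). The causes were not tested.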

How the results depend on the processing

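Over the 70 member differences and 1030 recomputed values, 975 kept their side of the threshold, 44 lost a call, 11 gained one and 0 turned a called value round. Leaving out 1 tumour gave 760 further values, with 39 calls lost and 9 gained. P4ha1 in the late tumours against day 0 kept its call under every alternative. Members called were 1, 2, 1, 1 and 2 at days 1, 2, 3, 6 and 9 against day 0, 5 late against day 0 and 2 late against day 1. Leaving out 1 tumour gave 0 to 2, 0 to 2, 0 to 2, 0 to 1, 0 to 3, 4 to 6 and 2 to 3.

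Blocking on the spike-in set, 0 members were called at each of days 1, 2, 3 and 6 (1, 3, 3 and 3 at an unadjusted p under 0.05 in limma) while day 9 kept 2 lower and late against day 0 had 2, P4ha1 lower and Ndrg1 higher. That block ties days 2, 3 and 6 to the other days through 1 day 1 tumour. It ties day 1 and the late group to day 0 only through late tumours 9 and 10. Only the third set gave 0 at day 9 (3 unadjusted) and 1 late against day 0. Fits of only the 2 groups gave 0 at day 1 (2 unadjusted), 1 at day 2, 2 at day 3, 2 at day 6 and 0 at day 9 (4 unadjusted). Without tumours of Gapdh difference above 2 the counts were 2 at day 3, 0 at day 9 (3 unadjusted) and 0 late against day 1 (5 unadjusted). The Gapdh difference as a covariate gave 1 at day 2 and 2 at day 3. A 2-fold limit gave 0 at days 1, 2, 3 and 6 (2, 4, 3 and 2 unadjusted) and 1 late against day 1. Median centring, no further scaling and the mean of the probe sets each gave 1 at day 2 and 0 at day 6, where a pseudocount of 1 and no filter also gave 0 (2 unadjusted in each but the mean of the probe sets, with 1). Testing every probe set gave 4 genes late against day 1. The late days up to 121 gave 6 against day 0 and, chosen after seeing the data, 3 against day 1.

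Counts over all genes also moved. They were 1979, 2161, 3057, 1747, 653, 6648 and 7403 in the order above. The block left 79, 134 and 70 at days 2, 3 and 6 and 4306 late against day 0. At day 9, only the 2 groups gave 0 (2481 unadjusted), the third set 1, low Gapdh differences 24, and leaving out 1 tumour 36 (without day 9 tumour 3) to 1237 (without day 9 tumour 2). Leaving out 1 tumour gave 889 (without day 0 tumour 4) to 2455 at day 1, 1178 to 2080 at day 2, 1633 to 3133 at day 3 and 832 to 1716 at day 6, all lowest without day 0 tumour 4. Late against day 0 the third set gave 2341, the Gapdh covariate 3468 and low Gapdh differences 4043, and late against day 1 the last 2 gave 3680 and 3733. A 2-fold limit left 513, 501, 643, 518, 299, 1598 and 1170, and testing every probe set, with more features, gave 3569, 4457, 6315, 4411, 1346, 12544 and 13101. The cause of these shifts was not tested. No paired analysis was possible because the labels give no replicate numbers that groups share.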
